A study of Mus musculus with 31 samples.

Results

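The 7 genes described here are the transactivator Ciita and 6 genes of the MHC class II pathway (H2-Aa, H2-Ab1, H2-Eb1, Cd74, H2-DMa and H2-DMb1) in mouse macrophages grown from bone marrow. They are listed by name rather than by a measured value, though earlier results of these data were known when they were chosen, and each was found by its Ensembl identifier in both count tables, which list 35275 and 54532 genes. All 7 passed the filter on low counts in both experiments, where 12662 and 13313 genes were tested. The comparison of interest is macrophages stimulated with lipopolysaccharide (LPS, a bacterial cell wall component) alone against macrophages given interferon gamma (IFNγ) together with LPS.

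MHC class II molecules are pairs of α and β chains that carry peptides from the endocytic pathway to the surface of antigen presenting cells, where CD4+ T cells read them. H2-Aa and H2-Ab1 encode the α and β chains of I-A, and H2-Eb1 encodes the β chain of I-E, whose α chain C57BL/6 mice do not make. Cd74 encodes the invariant chain, which fills the groove of new class II molecules and guides them to endosomes, and H2-DMa and H2-DMb1 encode chains of H2-M, which exchanges the invariant chain fragment for peptide. Ciita encodes a coactivator that does not bind DNA itself. It is recruited by RFX, CREB and NF-Y proteins on the X and Y boxes of class II promoters, and IFNγ is its best known inducer in macrophages.

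The cells came from male C57BL/6J mice aged 6 to 12 weeks and were grown with L-929 conditioned medium, and the labels name no genetic change in any group. Experiment 1 had 3 libraries for each of 7 groups. These were vehicle, LPS alone, and LPS after Dex, after iBRD9, after dBRD9 or after Dex with iBRD9 or dBRD9 (written Dex + LPS, Dex + iBRD9 + LPS and so on). Experiment 2 had 2 libraries for each of 5 groups, vehicle, IFNγ + LPS alone, and IFNγ + LPS after Dex, after dBRD9 or after both. Dex is the synthetic glucocorticoid dexamethasone (1 µM), iBRD9 inhibits the bromodomain of BRD9 (3 or 10 µM, with no label saying which sample had which), and dBRD9 (250 nM) makes cells degrade BRD9, which belongs to the non-canonical form of the BAF chromatin remodeller. The compounds were given overnight and LPS (100 ng/ml) for 3 h, and neither the dose nor the timing of IFNγ is given in the sources used here. The labels number the libraries but do not say that they came from separate animals or cultures, so the p-values measure the spread between libraries, which may be technical.

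The promoters of the class II genes are shown because the genes moved together in experiment 1 and because Ciita acts on them through the X and Y boxes. RefSeq windows (GRCm38.p6, 250 bases before to 50 after each start) matched 4 of the 7 genes, H2-Aa, H2-Eb1, H2-DMb1 and H2-DMa. The letters GNAACT, within the X box, and TGATTGG, the Y box, were searched on both strands, a search chosen with these sequences in view. The 120 bases before the start are given 5′ to 3′ on the gene's strand, with the X and Y letters of each pair in capitals. The H2-Aa stretch is chr17:34287824-34287943 on the minus strand and the H2-Eb1 stretch is chr17:34305747-34305866 on the plus strand.
H2-Aa: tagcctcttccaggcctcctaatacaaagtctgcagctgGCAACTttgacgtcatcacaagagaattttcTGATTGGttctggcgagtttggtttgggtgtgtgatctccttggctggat
H2-Eb1: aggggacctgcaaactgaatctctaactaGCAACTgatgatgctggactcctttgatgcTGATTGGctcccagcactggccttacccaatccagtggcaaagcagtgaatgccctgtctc
In both, GNAACT was followed by TGATTGG on the same strand, with 25 bases between them in H2-Aa and 24 in H2-Eb1. The X letters began 81 bases before the start of H2-Aa and 91 before that of H2-Eb1. H2-DMb1 held the same pair with 25 bases between, and neither of the 2 H2-DMa windows held it. Of all 32851 promoter windows, 42.8% held GNAACT, 7.82% held TGATTGG, and 0.125% (41 windows of 38 genes) held both on one strand with 20 to 30 bases between. A match of letters is a description and not a measured binding site.

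On mm10 (GENCODE M21), Ciita (ENSMUSG00000022504) lies on chromosome 16 from 10480059 to 10528418, and Cd74 (ENSMUSG00000024610) on chromosome 18 from 60803848 to 60812652. The other 5 genes lie within the MHC on chromosome 17, from H2-DMa (ENSMUSG00000037649, starting at 34119541) through H2-DMb1 (ENSMUSG00000079547), H2-Ab1 (ENSMUSG00000073421) and H2-Aa (ENSMUSG00000036594) to H2-Eb1 (ENSMUSG00000060586, ending at 34316674). Since the strand setting of the counting is not given in the sources used here, reads of H2-DMa and Brd2, which share 360 exon bases on opposite strands (10.4% of H2-DMa exon bases), cannot be fully told apart. The same holds for Ciita and Dexi (329 bases, 3.45%), and 22.7% of the 50-base words of H2-DMb1 also occur in its near copy H2-DMb2.

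Depth was 19.3 to 29.9 M (mega) counts per library in experiment 1 and 14.5 to 17.9 M in experiment 2. The common biological coefficient of variation was 6.79% and 10.6%. Within groups some libraries differed along the summed exon length of genes. Dex + LPS replicate 1 (Spearman rho across 7593 genes of its deviation from the group mean with length -0.68) and Dex + dBRD9 + LPS replicate 1 (-0.52) read genes of short exon length higher than the other 2 libraries of their groups. In experiment 2 the vehicle pair (replicate 1 at -0.64, replicate 2 at 0.64) and the Dex + IFNγ + LPS pair (0.57 and -0.57) also split by length. Dex + LPS against LPS, both comparisons with Dex + LPS and both interactions of experiment 1 are given with and without both of its libraries. The comparisons of these groups with vehicle are given with them only. The differences between the experiments were not fitted without both. All 10 macrophage markers were present in each library (summed 13010 to 28118 CPM, counts per mega of TMM-scaled library total, in experiment 1 and 13340 to 15763 in experiment 2, highest with Dex in experiment 1), while the 10 B cell markers summed to at most 7.46 CPM in any library, with Blk at 0 throughout.

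LPS alone raised Ciita and 5 of the 6 class II genes and lowered H2-DMa. Ciita was at 11.9, 11.6 and 11.3 CPM in the vehicle libraries and at 30.1, 33.9 and 32.6 CPM with LPS, a 2.78-fold rise (log2 fold change 1.47, SE 0.11, adjusted p = 2.2e-11, edgeR's quasi-likelihood test with Benjamini-Hochberg adjustment over all genes tested, as for every adjusted p below). The groups did not overlap. H2-Ab1 was at 54.8, 53.1 and 57.5 CPM in vehicle and 167, 169.7 and 169 CPM with LPS (3.06-fold, log2 fold change 1.61, SE 0.10, adjusted p = 1.1e-12). H2-Aa was at 62.0, 59.7 and 63.4 CPM and 116, 115 and 121 CPM (1.91-fold, log2 fold change 0.93, SE 0.10, adjusted p = 3.7e-08), and each LPS library was above each vehicle library. H2-Eb1 rose 2.29-fold, Cd74 1.87-fold and H2-DMb1 1.56-fold (log2 fold changes 1.19, 0.91 and 0.64, adjusted p from 2.2e-11 to 7.7e-09). H2-DMa, whose product pairs with that of H2-DMb1, moved the other way, from 27.4, 28.6 and 26.3 CPM in vehicle to 19.5, 22.4 and 21 CPM with LPS (log2 fold change -0.39, SE 0.10, adjusted p = 0.0012). Across all genes, 36.1% were called higher and 39.3% lower, and the median log2 fold change was -0.05 against 0.93 over the 7 genes. Scaled by library totals without TMM factors, all genes had a median of -0.56, and 5 of the 7 genes stayed called higher and H2-DMa lower, with H2-DMb1 at 0.13 (adjusted p = 0.078). Summed dendritic cell markers were at 4.71 to 5.24 CPM in vehicle and 9.69 to 9.91 CPM with LPS, and B cell markers at 5.39 to 6.20 and 2.23 to 3.02 CPM, and their part in the changes was not tested.

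**Figure D1:**
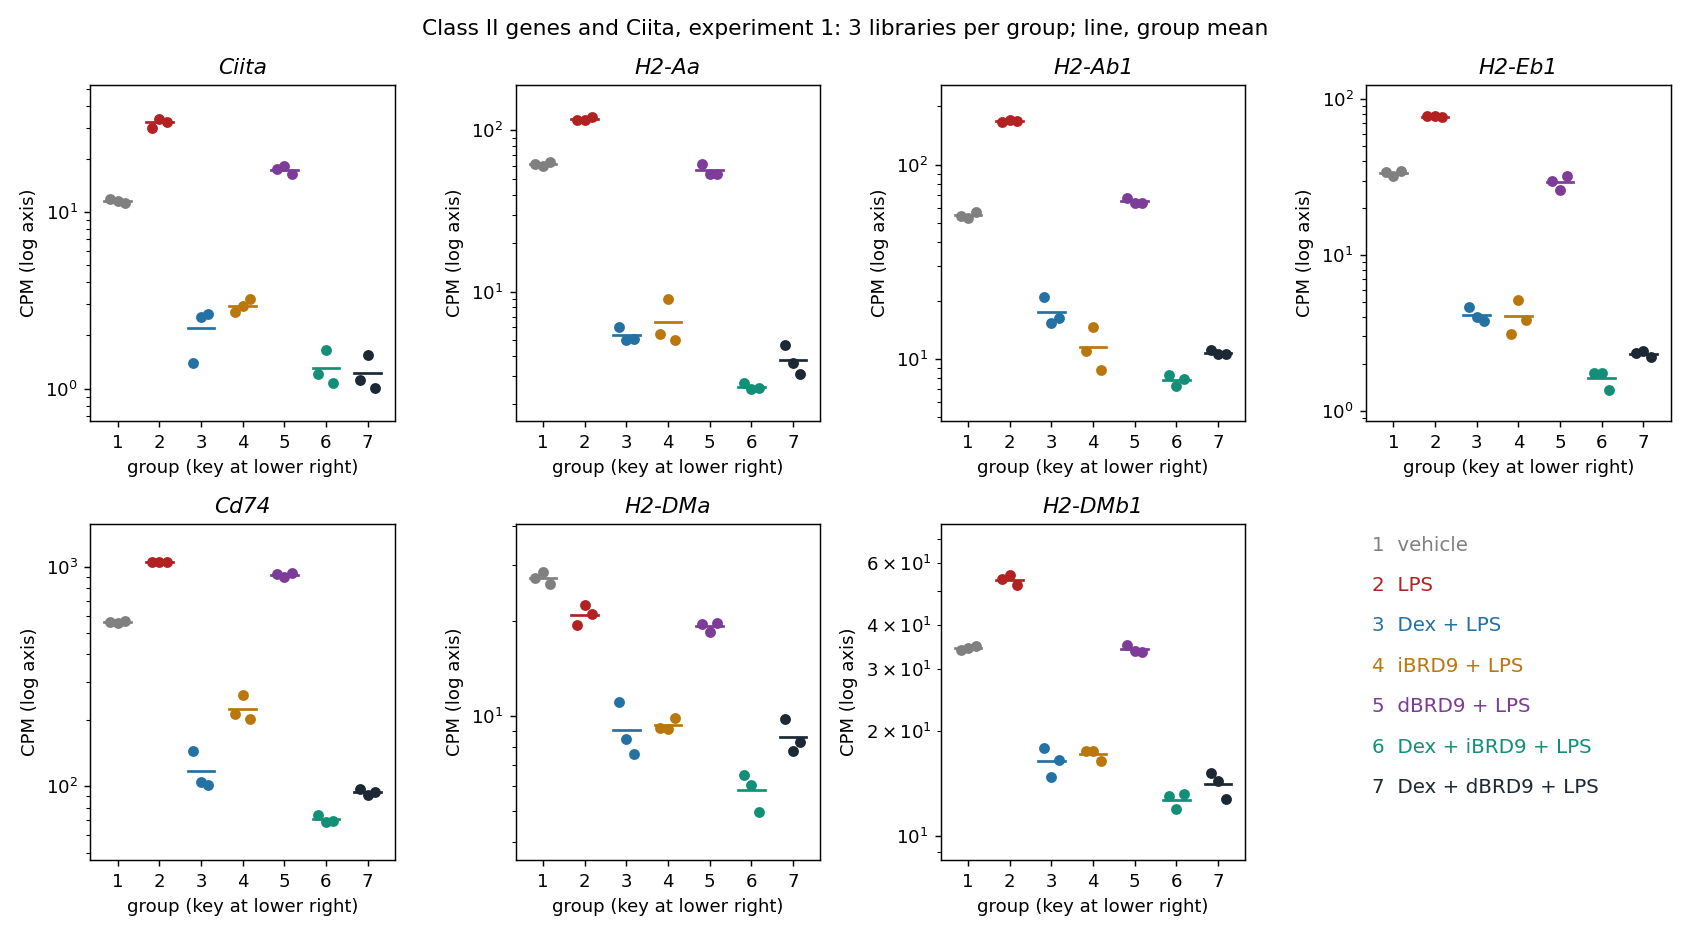
Level of each of the 7 genes in CPM (log axis) in the 21 libraries of experiment 1, by group (1 vehicle, 2 LPS, and LPS with 3 Dex, 4 iBRD9, 5 dBRD9, 6 Dex and iBRD9, 7 Dex and dBRD9); points are libraries and lines are group means. The LPS libraries are the highest for 6 genes, vehicle is the highest for H2-DMa, and the groups with Dex or iBRD9 sit below vehicle for all 7.

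Dex before LPS lowered all 7 genes below both LPS alone and vehicle. Ciita was at 1.39, 2.53 and 2.65 CPM in the Dex + LPS libraries, 14.9-fold below LPS (log2 fold change -3.89, SE 0.14, adjusted p = 3.0e-16). H2-Aa fell furthest, to 6.07, 5.0 and 5.07 CPM (21.7-fold, log2 fold change -4.44, SE 0.14, adjusted p = 1.3e-17). H2-Eb1 was at 4.64, 4.01 and 3.79 CPM against 77.8, 77.6 and 76.6 CPM with LPS (18.6-fold, log2 fold change -4.21, SE 0.11, adjusted p = 1.4e-18). For none of these 3 genes did a Dex + LPS library reach even the vehicle level. H2-Ab1 was at 21, 15.3 and 16.2 CPM (9.60-fold lower, log2 fold change -3.26, SE 0.11, adjusted p = 1.1e-16). Cd74, the invariant chain, went from 1049.9, 1056 and 1049 CPM to 145, 105 and 101 CPM (8.98-fold lower, log2 fold change -3.17, SE 0.10, adjusted p = 2.7e-17). The H2-M genes fell least, H2-DMb1 3.27-fold (to 17.9, 14.8 and 16.5 CPM, log2 fold change -1.71) and H2-DMa 2.31-fold (to 11.1, 8.47 and 7.59 CPM, log2 fold change -1.21). All 7 were called lower, where 27.5% of all genes were, and their median log2 fold change was -3.26 against 0.01 over all genes. Without both libraries that stood apart, Ciita was at -3.63, Cd74 at -3.35 and H2-DMa at -1.39. Summed B cell markers were at 2.23 to 3.02 CPM with LPS and 0.548 to 1.21 CPM with Dex + LPS, and summed dendritic cell markers at 9.69 to 9.91 and 5.29 to 7.92 CPM, with Cd209a at 0. Their part in the fall was not tested, and in bulk RNA fewer cells of a type and less RNA per cell cannot be told apart.

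The BRD9 bromodomain inhibitor also lowered all 7 genes. Ciita was at 2.71, 2.94 and 3.21 CPM in the iBRD9 + LPS libraries (10.9-fold below LPS, log2 fold change -3.45, SE 0.13, adjusted p = 5.7e-16). H2-Eb1 was at 3.12, 5.18 and 3.81 CPM (19.3-fold lower, log2 fold change -4.27, SE 0.11, adjusted p = 1.2e-18). H2-Aa was at 5.46, 8.95 and 5.0 CPM (18.2-fold lower, log2 fold change -4.19, SE 0.13, adjusted p = 2.2e-17). H2-Aa, H2-Ab1, H2-Eb1 and Cd74 were highest in the replicate 2 library of the group, which stayed far below each LPS library. H2-Ab1 was at 11, 14.7 and 8.81 CPM (14.7-fold lower, log2 fold change -3.88, SE 0.12, adjusted p = 1.2e-17). Cd74 kept more of its level, at 214, 259.7 and 203 CPM (4.67-fold lower, log2 fold change -2.22, SE 0.10, adjusted p = 6.4e-15). H2-DMa fell 2.24-fold and H2-DMb1 3.13-fold (log2 fold changes -1.16 and -1.65). The share of all genes called lower was 30.5%, and the median log2 fold change was -3.45 over the 7 genes and 0.01 over all genes. All 7 genes were also lower than in vehicle, by 2.01-fold for H2-DMb1 to 9.57-fold for H2-Aa, where 35.6% of all genes were. Summed B cell markers were at 0.599 to 0.814 CPM and dendritic cell markers at 3.29 to 4.35 CPM with iBRD9 + LPS, below the LPS libraries. The 8 neutrophil markers, of which 5 passed the filter, summed to 17.0 to 24.1 CPM with LPS and 0.984 to 2.37 CPM with iBRD9 + LPS. Their part in the fall was not tested.

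The BRD9 degrader lowered Ciita and 4 of the 6 class II genes, those for the I-A and I-E chains and H2-DMb1. Ciita was at 17.5, 18.2 and 16.5 CPM in the dBRD9 + LPS libraries (1.85-fold below LPS, log2 fold change -0.89, SE 0.11, adjusted p = 1.9e-06). H2-Eb1 was at 29.9, 26.2 and 32.0 CPM (2.63-fold lower, log2 fold change -1.40, SE 0.09, adjusted p = 1.8e-10). H2-Ab1 was at 67.6, 63.9 and 63.7 CPM (2.59-fold lower, log2 fold change -1.37, SE 0.10, adjusted p = 1.1e-09). For these 3 genes each dBRD9 + LPS library was below each LPS library. H2-Aa was at 61.6, 54.0 and 53.8 CPM (2.08-fold lower, log2 fold change -1.06, SE 0.11, adjusted p = 1.5e-07), and H2-DMb1 at 35.1, 33.7 and 33.6 CPM (1.58-fold lower, log2 fold change -0.66, SE 0.06, adjusted p = 1.0e-07). Cd74 was at 927, 902 and 938 CPM and was not called (log2 fold change -0.19, SE 0.09, adjusted p = 0.18), though all 3 libraries were below the LPS libraries and it was called without both libraries that stood apart (adjusted p = 0.0031). H2-DMa was not called either (log2 fold change -0.13, 95% interval -0.34 to 0.09). The call of 5 genes lower stands beside 9.97% of all genes, and the medians were -0.89 and 0.00. The doses of iBRD9 are not tied to samples, so the inhibitor and the degrader were not compared.

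Against vehicle, the degrader plus LPS left Ciita 1.5-fold and Cd74 1.64-fold higher (log2 fold changes 0.59 and 0.72), H2-DMa 1.43-fold lower, and H2-Ab1 at 0.24 (adjusted p = 0.036). With library totals alone H2-Ab1 turned to -0.22, Ciita was at 0.13 and no longer called (adjusted p = 0.29), and 1 gene was called higher (Cd74) and 4 lower. H2-Eb1 was at -0.20 (adjusted p = 0.047), a call lost without any 1 library of either group other than dBRD9 + LPS replicate 3. H2-Aa and H2-DMb1 were not called, with intervals of -0.35 to 0.09 and -0.15 to 0.12, but both were called lower with library totals alone (-0.59 and -0.47). Of all genes, 35.7% were called higher and 39% lower. Dex + LPS set all 7 genes below vehicle, from 2.09-fold (H2-DMb1) to 11.4-fold (H2-Aa), where 38.7% of all genes were called lower. With Dex + iBRD9 + LPS all 7 were below vehicle too, by 2.70-fold for H2-DMb1 to 24.0-fold for H2-Aa, beside 36.3% of all genes, and likewise with Dex + dBRD9 + LPS, by 2.44-fold to 16.2-fold, beside 38.2%. The Ciita levels ran from LPS through dBRD9 + LPS, vehicle and iBRD9 + LPS down to Dex + LPS with no overlap between neighbours, and the 3 groups with Dex overlapped each other.

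From the low level that Dex had set under LPS, adding iBRD9 lowered all 7 genes and adding dBRD9 lowered 5 of the 7. With Dex + iBRD9 + LPS, H2-Aa was at 2.71, 2.47 and 2.53 CPM (log2 fold change -1.07, SE 0.20, adjusted p = 0.00022, against Dex + LPS). H2-Eb1 was at 1.75, 1.75 and 1.36 CPM (log2 fold change -1.36, SE 0.18, adjusted p = 3.8e-06). Cd74 was at 73.9, 68.7 and 69.8 CPM (log2 fold change -0.73, SE 0.10, adjusted p = 4.2e-06). All 7 genes were called lower, where 18% of all genes were, with a median of -0.73 against 0.01, and all 7 were also called without both libraries that stood apart. Ciita, at 1.2, 1.65 and 1.08 CPM, overlapped the Dex + LPS libraries (log2 fold change -0.73, SE 0.22, adjusted p = 0.014). Its call was lost in 4 of 13 alternatives (adjusted p up to 0.12). Among them were the fits without Dex + LPS replicate 2 or 3 or Dex + iBRD9 + LPS replicate 3. Without both libraries that stood apart Ciita was at -1.0 (adjusted p = 0.00028).

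With Dex + dBRD9 + LPS, H2-Ab1 was at 11.2, 10.6 and 10.6 CPM (log2 fold change -0.70, SE 0.12, adjusted p = 0.00036) and H2-Eb1 at 2.34, 2.42 and 2.21 CPM (log2 fold change -0.84, SE 0.16, adjusted p = 0.00086). In both genes each library was below each Dex + LPS library. Ciita was at 1.11, 1.56 and 1.01 CPM (log2 fold change -0.81, SE 0.22, adjusted p = 0.013), Cd74 at 97.1, 91.2 and 94.7 CPM (adjusted p = 0.029) and H2-DMb1 at 15.1, 14.4 and 12.7 CPM (adjusted p = 0.048). H2-Aa (log2 fold change -0.50, SE 0.18, adjusted p = 0.062) and H2-DMa (interval -0.33 to 0.18) were not called. The 5 calls stand beside 9.28% of all genes, and leaving out 1 library at a time gave 2 to 5. Without both libraries that stood apart, H2-Ab1 (-0.57), H2-Eb1 (-0.75), Ciita (-0.99) and H2-Aa (-0.58) were called, while Cd74 (-0.15, adjusted p = 0.13) and H2-DMb1 (-0.21, adjusted p = 0.1) were not. The H2-DMb1 call was lost in 9 of 13 alternatives (adjusted p from 0.06 to 0.35). The Cd74 call was lost in 6 of them and the Ciita call in 5. The levels of Ciita, from 29, 38 and 21 counts, and of H2-DMb1 overlapped those of the Dex + LPS libraries.

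The effect of each BRD9 compound with Dex was compared with its effect without Dex by an interaction term. For iBRD9 all 7 genes were called higher (less lowered on the log scale once Dex was present), from 0.52 for H2-DMa (adjusted p = 0.022) to 3.12 for H2-Aa (SE 0.26, adjusted p = 2.7e-09), where 17.3% of all genes were. The H2-DMa call was lost in a fit of the compared groups alone (adjusted p = 0.054) and without Dex + iBRD9 + LPS replicate 1 or 2, LPS replicate 2 or Dex + LPS replicate 3 (adjusted p from 0.052 to 0.083). Ciita was at 2.72 (SE 0.28, adjusted p = 7.1e-08). For dBRD9 only H2-Ab1 (0.67, adjusted p = 0.019) and H2-DMb1 (0.44, adjusted p = 0.013) were called, beside 1.82% of all genes. The interaction for Ciita was 0.08 with a 95% interval of -0.44 to 0.61. Without both libraries that stood apart the 7 iBRD9 calls and the 2 dBRD9 calls were the same, with H2-DMa at 0.70 and H2-Aa at 3.22 for iBRD9 and H2-Ab1 at 0.80 and H2-DMb1 at 0.44 for dBRD9.

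In experiment 2, with TMM scaling and all libraries, IFNγ + LPS raised Ciita 51.5-fold while the class II genes moved by less than 1.5-fold. Ciita was at 0.655 and 1.37 CPM in the vehicle libraries (13 and 32 counts) and at 50.8 and 56.9 CPM with IFNγ + LPS (log2 fold change 5.69, SE 0.29, adjusted p = 5.5e-11). With 1 library left out its log2 fold change ran from 5.29 to 6.34. H2-Aa was at 82.6 and 67.2 CPM in vehicle and 91.9 and 108 CPM with IFNγ + LPS, a change of 0.42 (adjusted p = 0.0079) that turned to -0.23 with library totals alone. H2-Ab1 was at 79.1 and 61.2 CPM and 86.9 and 98.9 CPM, a change of 0.41 (adjusted p = 0.013) that turned to -0.24. For each of these chain genes both stimulated libraries were above both vehicle libraries with TMM scaling. Cd74 was at 449 and 335 CPM and 525 and 548 CPM, a change of 0.45 (adjusted p = 0.0048) that turned to -0.19, and H2-DMa changed by 0.48 (adjusted p = 0.012), which turned to -0.16. H2-Eb1, at 73.7 and 59.1 CPM in vehicle and 66.9 and 72.8 CPM with IFNγ + LPS, overlapped and was not called (interval -0.19 to 0.33), and neither was H2-DMb1 (interval -0.36 to 0.23), while with library totals alone both were called lower (-0.57 and -0.72). The 5 genes called higher stand beside 32.8% of all genes, and the medians were 0.42 and -0.11. Over all genes the median under that scaling was -0.76. There the 6 class II estimates were below 0, and only those of H2-Eb1 and H2-DMb1 were called. H2-DMb1 (-0.72) lay near the median of all genes, and the other class II estimates lay above it. Without vehicle replicate 2, Ciita was called and the other 6 genes were not. Summed dendritic cell markers were at 6.65 to 6.77 CPM in vehicle and 42.0 to 45.4 CPM with IFNγ + LPS. Only 4 of these 10 markers passed the filter, and Cd209a was at 0, so the sum rests on few genes. More cells of a type and more RNA per cell cannot be told apart, and the markers' part in the Ciita level was not tested.

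**Figure D2:**
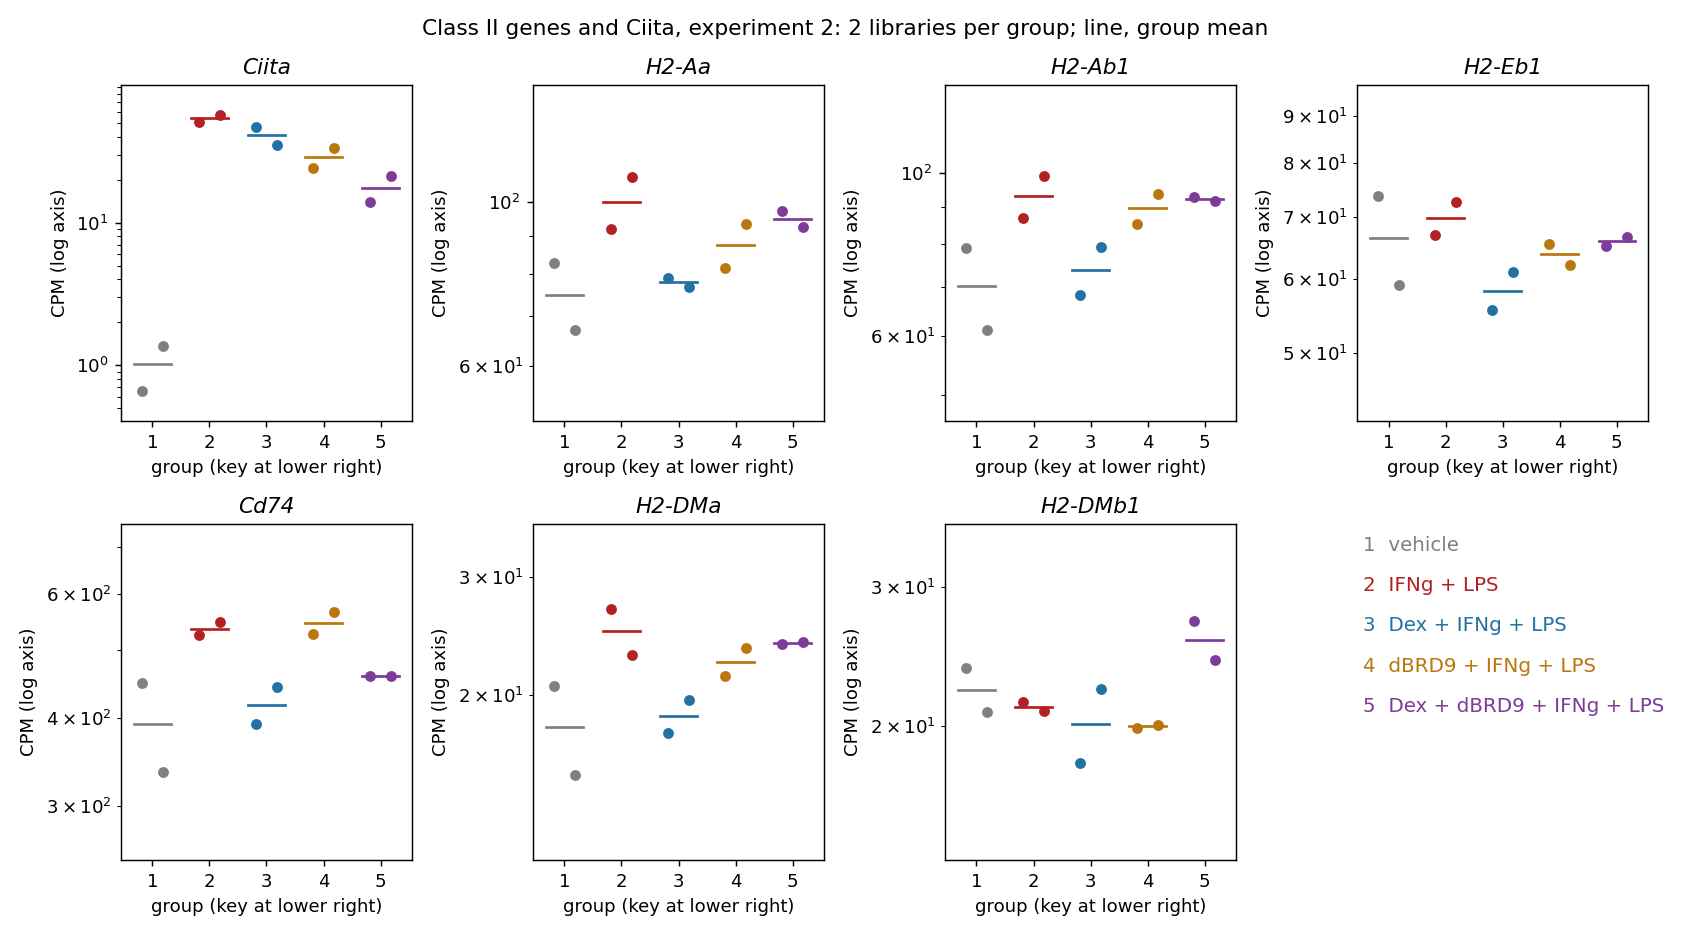
Level of each of the 7 genes in CPM (log axis) in the 10 libraries of experiment 2, by group (1 vehicle, 2 IFNγ + LPS, and the same with 3 Dex, 4 dBRD9, 5 both); points are libraries and lines are group means, scaled by TMM. Ciita runs from 0.655 to 56.9 CPM, whereas H2-Aa stays between 67.2 and 108 CPM, and the place of vehicle among the groups for the class II genes turns with library totals alone.

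Dex changed none of the 7 genes past the threshold under IFNγ + LPS. Ciita was at 47.0 and 34.8 CPM with Dex + IFNγ + LPS (against IFNγ + LPS, log2 fold change -0.40, SE 0.20, adjusted p = 0.2, 95% interval -0.83 to 0.04). H2-Aa was at 78.9 and 76.8 CPM (log2 fold change -0.36, SE 0.13, adjusted p = 0.056, interval -0.63 to -0.09). Cd74 was at 392 and 442 CPM (log2 fold change -0.36, SE 0.13, adjusted p = 0.055, interval -0.63 to -0.09). All 7 estimates were below 0, from -0.42 for H2-DMa to -0.07 for H2-DMb1, and none of their intervals reached -1. Of all genes, 19.9% were called in either direction. In edgeR 4 of the 7 genes had an unadjusted p under 0.05. DESeq2 called 3 lower (H2-Aa, H2-Ab1 and Cd74) and limma voom none.

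dBRD9 lowered Ciita under IFNγ + LPS but no class II gene past the threshold. Ciita was at 24.1 and 33.1 CPM with dBRD9 + IFNγ + LPS, 1.88-fold below IFNγ + LPS (log2 fold change -0.91, SE 0.21, adjusted p = 0.034). With Dex as well it was at 13.9 and 21.1 CPM, 2.33-fold below Dex + IFNγ + LPS (log2 fold change -1.22, SE 0.22, adjusted p = 0.0079). The first call was lost without any 1 of its 4 libraries (-0.71 to -1.15, adjusted p from 0.089 to 0.33), and the second without Dex + IFNγ + LPS replicate 1 (-1.0, adjusted p = 0.081) or Dex + dBRD9 + IFNγ + LPS replicate 1 (-0.95, adjusted p = 0.2). The shares of all genes called lower were 1.01% and 1.16%. H2-Aa was at 81.5 and 93.4 CPM with dBRD9 + IFNγ + LPS (interval of the log2 fold change -0.46 to 0.08) and at 97.2 and 92.4 CPM with Dex as well (0.01 to 0.55). H2-Ab1 was at 85.3 and 93.8 CPM (-0.33 to 0.23) and 92.8 and 91.7 CPM (0.04 to 0.60). With Dex present the 6 class II estimates for dBRD9 lay above 0, from 0.14 for Cd74 to 0.36 for H2-DMa, and edgeR called none of them (adjusted p = 0.3 for H2-DMa and 0.27 for H2-Ab1). The Ciita order over groups, IFNγ + LPS above Dex + IFNγ + LPS, then dBRD9 + IFNγ + LPS, then the combination, then vehicle, had no overlap between neighbours, although the step from the first to the second was not called. The interaction of Dex and dBRD9 was called in edgeR for none of the 7 genes (3 at an unadjusted p under 0.05, none in DESeq2 or limma voom), beside 0.00751% of all genes in either direction.

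Against vehicle, Ciita stayed 39.2-fold higher with Dex + IFNγ + LPS, 27.4-fold higher with dBRD9 + IFNγ + LPS and 16.8-fold higher with both (log2 fold changes 5.29, 4.78 and 4.07), and no scaling turned these. The sizes rest on vehicle libraries of 13 and 32 Ciita counts. With 1 library left out they ran from 4.87 to 5.93, 4.38 to 5.44 and 3.65 to 4.70 on the log2 scale. With Dex + IFNγ + LPS no other gene was called, where 32.6% of all genes were called higher, but with library totals alone the 6 class II genes were all called lower than vehicle (-0.48 to -0.76). With dBRD9 + IFNγ + LPS, H2-Ab1 (0.35) and Cd74 (0.48) were called higher beside 33% of all genes, and they turned to -0.32 and -0.19 with library totals alone. With Dex + dBRD9 + IFNγ + LPS, H2-Aa (0.34), H2-Ab1 (0.40) and H2-DMa (0.42) were called higher beside 30.4%, and turned to -0.24, -0.18 and -0.16.

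The 2 stimuli were then contrasted in 1 fit of all 31 libraries over 13539 genes, as the difference between the responses of the experiments. The experiments differ in more than IFNγ, so stimulus and experiment cannot be told apart. The rise of Ciita was larger in experiment 2 by a log2 difference of 4.33 (SE 0.30, adjusted p = 1.1e-12). Its vehicle level also differed, with 11.3 to 11.9 CPM in experiment 1 and 0.655 to 1.37 CPM in experiment 2, each scaled within its own experiment. The 7 stromal cell markers summed to at most 0.66 CPM in any library of experiment 1 and to 33.5 to 67.4 CPM in experiment 2, and their part in the differences was not tested. The chain genes H2-Ab1 and H2-Eb1 went the other way, with H2-Ab1 at -1.09 (SE 0.17, adjusted p = 4.7e-06) and H2-Eb1 at -1.0 (SE 0.14, adjusted p = 1.4e-06), their rise being larger with LPS alone. H2-DMb1 was at -0.59 and H2-DMa at 0.99 (adjusted p = 0.00031 and 3.4e-05), while H2-Aa (-0.39, adjusted p = 0.07) and Cd74 (-0.33, adjusted p = 0.089) were not called. Both were called lower with library totals alone (-0.67 and -0.60), with no filter, in 2 separate fits and without vehicle replicate 2 of experiment 2, and H2-Aa also in limma voom and without IFNγ + LPS replicate 2. The shares of all genes were 24.4% higher and 18.4% lower.

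The lowering by Dex was smaller under IFNγ + LPS for all 7 genes, where 14.6% of all genes were called in that direction. The difference was 4.02 for H2-Aa (SE 0.20, adjusted p = 1.9e-15), 3.90 for H2-Eb1, 3.44 for Ciita (SE 0.26, adjusted p = 1.8e-11), 2.87 for H2-Ab1, 2.75 for Cd74, 1.58 for H2-DMb1 and 0.72 for H2-DMa (adjusted p = 0.0041). All 7 were called in each alternative run and without any 1 library. The Dex + LPS libraries held a Ciita level below that of their vehicle, and the Dex + IFNγ + LPS libraries one far above it.

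The lowering by dBRD9 differed between the experiments for the chain genes and not detectably for Ciita. The difference was 1.3 for H2-Ab1 (SE 0.17, adjusted p = 6.8e-06), 1.25 for H2-Eb1 (adjusted p = 1.3e-06), 0.85 for H2-Aa (adjusted p = 0.0022) and 0.56 for H2-DMb1 (adjusted p = 0.0066), beside 4.64% of all genes. For Ciita it was -0.04 with a 95% interval of -0.49 to 0.42. With Dex present the same 4 genes were called (1.00, 0.99, 0.76 and 0.55 in that order), beside 2.67% of all genes, and the calls fell to 2 without Dex + IFNγ + LPS replicate 1 or Dex + dBRD9 + IFNγ + LPS replicate 1. The H2-Aa call (adjusted p = 0.045) was lost in 9 of 15 alternatives, among them library totals alone, limma voom and the omission of any 1 of 7 libraries (adjusted p from 0.059 to 0.14). The H2-DMb1 call was lost in 2 separate fits (adjusted p = 0.051) and without either of the replicate 1 libraries just named (adjusted p = 0.17 and 0.11).

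**Figure D3:**
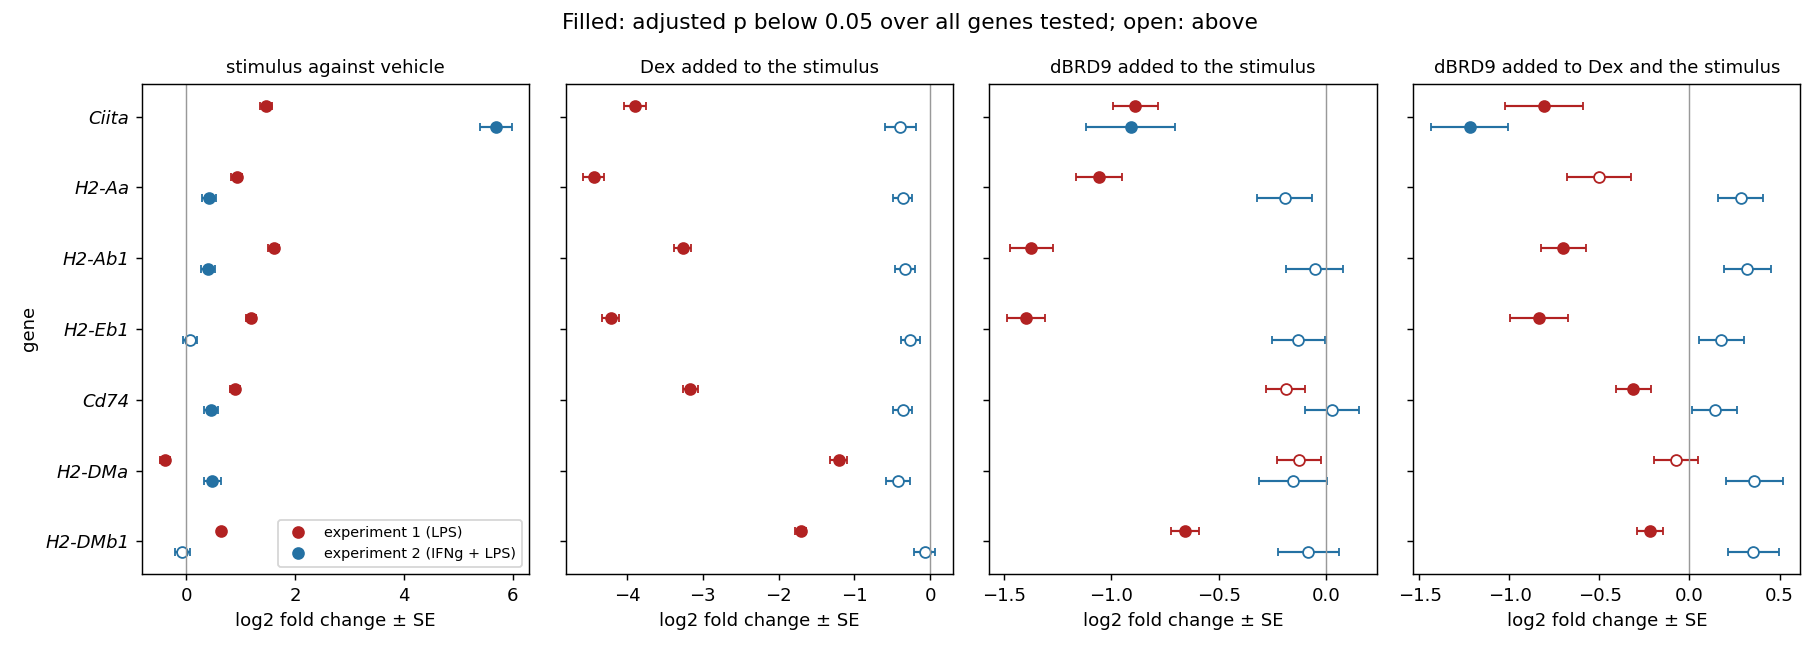
Log2 fold change ± SE of the 7 genes in 4 comparisons, red for experiment 1 (LPS, 3 libraries a group) and blue for experiment 2 (IFNγ + LPS, 2 libraries a group); filled points passed an adjusted p of 0.05 over all genes. With Dex the red points lie between -4.44 and -1.21 and the blue ones between -0.42 and -0.07; the blue changes called against vehicle, other than that of Ciita, turn sign with library totals alone.

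Ciita and the class II genes tracked each other in experiment 1 and much less in experiment 2. Over the 21 libraries of experiment 1 the Pearson correlation of log2(CPM + 1) with Ciita was 0.977 for H2-Aa, 0.965 for H2-Ab1, 0.98 for H2-Eb1, 0.967 for Cd74, 0.979 for H2-DMb1 and 0.875 for H2-DMa. Over the 10 libraries of experiment 2 it was 0.513 for H2-Aa, 0.495 for H2-Ab1, -0.161 for H2-Eb1, 0.563 for Cd74, 0.479 for H2-DMa and -0.335 for H2-DMb1. The libraries fall into treatment groups, and those of a group share their treatment, so these values describe the spread between groups as much as between libraries. They were computed with TMM scaling only. The 2 experiments had unlike groups, with no iBRD9 group in experiment 2. H2-Aa ran from 2.47 to 121 CPM in experiment 1 and from 67.2 to 108 CPM in experiment 2. A narrower range lowers a correlation, so the values of the experiments are not on a like footing. With library totals alone the changes of H2-Aa, H2-Ab1, Cd74 and H2-DMa from vehicle to IFNγ + LPS turned sign. Among themselves the chain genes H2-Aa and H2-Ab1 stayed together in both experiments (0.976 and 0.919).

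**Figure D4:**
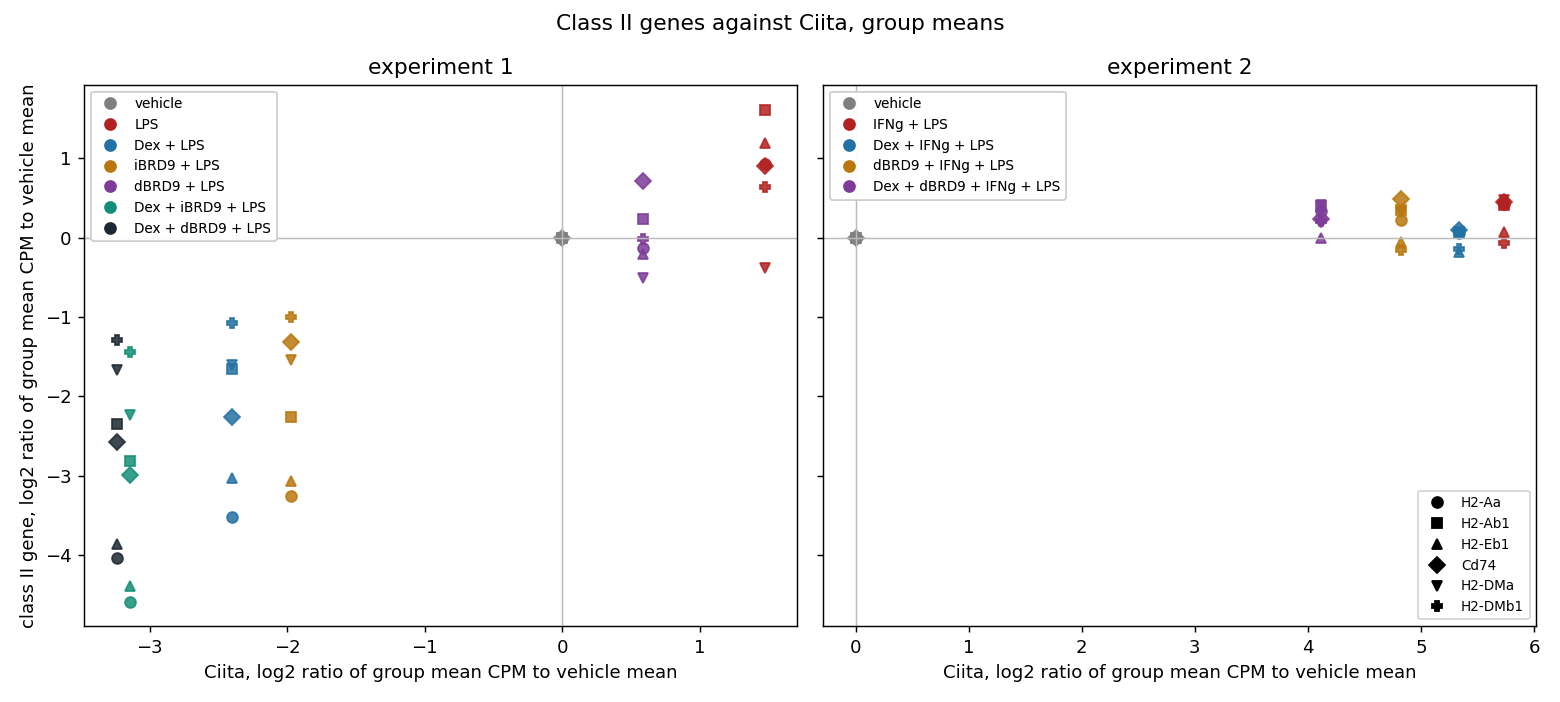
Group mean of each class II gene (y, log2 ratio to the vehicle mean) against that of Ciita (x, same scale) in experiment 1 (left) and experiment 2 (right); colours are groups and symbols are genes, and levels are TMM-scaled CPM. In experiment 1 the groups with Ciita below vehicle also have the 6 class II genes below vehicle; in experiment 2 Ciita lies at least 4 log2 units above vehicle in each stimulated group while the class II genes lie near 0, on a side of 0 that turns for several of them with library totals alone.

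Levels between genes were compared per kilobase of exon. With LPS, Cd74 stood at 626 ± 2.44 CPM per kilobase (SD, n = 3), H2-Ab1 at 65.6 ± 0.461, H2-Eb1 at 39.8 ± 0.337, H2-DMb1 at 32.0 ± 1.05, H2-Aa at 31 ± 0.834, H2-DMa at 6.07 ± 0.425 and Ciita at 3.38 ± 0.201. H2-DMb1 and H2-Aa differed by less than their combined spread. With IFNγ + LPS the values were 319 ± 9.63 for Cd74 (SD, n = 2), 36.2 ± 3.30 for H2-Ab1, 35.9 ± 2.12 for H2-Eb1, 26.3 ± 3.04 for H2-Aa, 12.6 ± 0.226 for H2-DMb1, 7.23 ± 0.807 for H2-DMa and 5.65 ± 0.448 for Ciita, with H2-Ab1 and H2-Eb1 within their spread of each other. Dividing by the longest transcript in place of all exons put H2-Ab1 at 139 with LPS and 76.7 with IFNγ + LPS, against 46.3 and 41.9 for H2-Eb1, so the distance between these 2 genes depends on the length used. Cd74 was the highest of the 7 per kilobase and Ciita the lowest in both groups, with either length.

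The counts of called genes in the pathway lists stand beside the following shares of all genes. With LPS 36.1% of all genes were called higher and 39.3% lower, and with IFNγ + LPS 32.8% and 35.6%. Under LPS the shares were 27.9% and 27.5% for Dex, 31.4% and 30.5% for iBRD9 and 6.64% and 9.97% for dBRD9, and under IFNγ + LPS 10.7% and 9.21% for Dex.

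The genes for the factors that recruit Ciita moved in both directions with either stimulus and with iBRD9 under LPS. Of 7 genes for RFX, NF-Y and CREB proteins, LPS raised 3 and lowered 2 (median log2 fold change 0.14, and 2 and 4 with library totals alone, median -0.38), with Creb1 at 1.04, Rfx5 at 0.81 and Rfxap, the RFX-associated protein, at -0.85. Under Dex 5 rose and none fell (median 0.31), led by Rfxap (0.78), while Ciita and the 6 class II genes fell. iBRD9 raised 4 and lowered 3, with Rfx5 at -0.74, and dBRD9 raised 2 (Rfxap 0.51 and Nfyc 0.23). IFNγ + LPS raised 4 and lowered 2 (median 0.60, and 3 and 3 with library totals alone, median -0.05), with Rfx5 and Nfyb, an NF-Y subunit, both at 1.68.

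Of 15 genes of IFNγ receptor signalling and known regulators of Ciita, 11 rose and 3 fell with LPS (median 1.5), or 9 and 6 with library totals alone (median 0.99). With IFNγ + LPS 11 rose and 4 fell (median 1.73), or 9 and 4 with library totals alone (median 1.08). Irf1, a factor that binds the interferon-inducible Ciita promoter, was at 48.4 ± 2.09 CPM (SD, n = 3) in vehicle and 812 ± 7.73 CPM with LPS (log2 fold change 4.07), and in experiment 2 at 53.6 ± 5.43 CPM (SD, n = 2) and 2608 ± 101 CPM (5.61). Under LPS Dex lowered 8 of the 15 genes and raised 2 (median -0.33), with Socs1, a feedback inhibitor of JAK signalling, at -2.42, Irf8 at -1.61 and Ifngr1, the receptor's ligand-binding chain, at 1.2. Under IFNγ + LPS it lowered 6 and raised 2 (median -0.23), with Socs1 at -0.96 and Ifngr1 at 0.83. iBRD9 lowered 6 and raised 5, with Il10, an anti-inflammatory cytokine, at -1.71, and dBRD9 lowered 5 and raised 2, with Il10 at -1.21. Under IFNγ + LPS dBRD9 changed none of the 15 past the threshold. Only 1.01% of all genes were called lower there, so few or no calls among 15 genes are near that share. In the fit of all 31 libraries, the response to IFNγ + LPS minus that to LPS was 5.88 for Irf8 and 1.66 for Irf1. It was below 0 for others of the 15, such as Ifngr1 (-1.15). Stimulus and experiment cannot be told apart there. Ifng itself had 0 counts in the 3 LPS libraries, but it had counts in other libraries of experiment 1 and in experiment 2. The part of IFNγ made by the cells was not tested.

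Of 10 genes of class II antigen processing and turnover, LPS raised 2 and lowered 5 (2 and 8 with library totals alone). Of all genes 36.1% were called higher and 39.3% lower. Dex under LPS raised 3 and lowered 3 of the 10, near the shares of all genes (27.9% and 27.5%). March1, a ubiquitin ligase that removes class II from the surface, was at 43.4 ± 1.21 CPM (SD, n = 3) with LPS, 115 ± 7.92 CPM with Dex + LPS and 1.43 ± 0.410 CPM with iBRD9 + LPS (log2 fold changes 1.40 and -4.94 against LPS). Its level rose with Dex where the class II transcripts fell, and it fell with iBRD9 together with them. Dex also raised March1 under IFNγ + LPS (1.22). iBRD9 lowered 8 of the 10 genes, beside 30.5% of all genes, among them Ctss, the protease that trims the invariant chain (-1.06). dBRD9 lowered 5, beside 9.97%.

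The class I presentation genes, which Ciita is not the main activator of, rose with both stimuli. All 12 rose with LPS (median 1.3) and with IFNγ + LPS (median 1.88), or 9 in each with library totals alone (medians 0.78 and 1.23) and none fell, beside 36.1% and 32.8% of all genes higher. Nlrc5, the class I counterpart of Ciita, was at 127 ± 10.9 CPM with LPS (SD, n = 3) and 37.2 ± 4.65 CPM with Dex + LPS (-1.77), and at 458 ± 38.9 CPM with IFNγ + LPS (SD, n = 2) and 372 ± 57.8 CPM with Dex as well. Dex lowered 11 of the 12 under LPS (median -0.61, against -3.26 for the class II genes and Ciita) and 2 under IFNγ + LPS (median -0.28). The test of that difference called 6 of the 12 higher (median 0.37, against 2.87), beside 14.6% of all genes. Of 5 other class II genes, H2-DMb2 and H2-Ob passed the filter in experiment 1 and H2-Ob in experiment 2, at low counts. With LPS, H2-DMb2, whose reads may be shared with H2-DMb1, went from 0.937 ± 0.198 to 0.269 ± 0.0762 CPM (SD, n = 3) and was called lower, and H2-Ob went from 0.0498 ± 0.0863 to 0.459 ± 0.0851 CPM and was called higher.

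The genes whose profile over the 21 libraries of experiment 1 was most like that of Ciita (Pearson r of log2(CPM + 1), among genes with at least 10 CPM in their highest group) were Arhgap6 (0.988), Dck (0.982), Tal1 (0.981), Plekhn1 (0.979) and Diaph3 (0.977). For H2-Aa they were C1qbp (0.984), Atic (0.981), Epsti1 (0.98), Diaph3 (0.98) and Itgax (0.979). Over the 10 libraries of experiment 2 the genes listed for Ciita were Col27a1 (0.996), Vcan (0.991), Il2ra (0.99), Il12rb1 (0.989) and Gbp6 (0.989). The class II genes were at 0.563 or lower with Ciita there. For H2-Aa they were Nbn (0.856), Ybx1 (0.855), Golt1b (0.852), Dnajb1 (0.825) and Pop7 (0.825). No gene was shared by the 2 lists for Ciita or by the 2 lists for H2-Aa.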

How the data were processed

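RNA from mouse bone marrow-derived macrophages was measured by RNA-seq in 31 libraries of 2 experiments (21 in 7 groups and 10 in 5 groups). The deposited values are the authors' raw counts per Ensembl gene, with 1 column per library; fastp, STAR, DESeq2 and the build mm10 are named per the submitters' processing notes. How reads were counted, on which annotation and with which strand setting is not given in the sources used here. Identifiers were matched to symbols and positions with GENCODE M21 (97.8% and 99.9% of identifiers had a symbol).

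Each experiment was fitted once over all its groups with edgeR 4.0.16 (R 4.3.3), after filterByExpr (minimum count 10, minimum total 15) and TMM scaling, with quasi-likelihood F-tests and Benjamini-Hochberg adjustment over all genes tested; an adjusted p under 0.05 is called. The standard error is the log2 fold change divided by the square root of F. A fit of all 31 libraries over the genes listed in both tables, of which 13539 passed the same filter, gave the differences between experiments. There were 25 comparisons in all. CPM values are TMM-scaled, and per-kilobase levels divide them by summed exon length. The fits were tested on simulated data with known changes. No replicate block was used. Same-numbered libraries deviated together (every correlation over 0.1) only for Dex + LPS with Dex + dBRD9 + LPS (0.744, 0.439 and 0.561) and with Dex + iBRD9 + LPS (0.252, 0.113 and 0.169) among the 21 group pairs of experiment 1; with the block, the members' calls in those 2 comparisons stayed at 5 and 7. Alternatives were DESeq2 1.42.0, limma voom 3.58.1, library totals, no filter, the replicate block, fits of the compared groups only, each library left out and both libraries that stand apart left out. The replicate block, the fits of the compared groups and the run without both libraries were not made for the fit of all 31 libraries. Pathway lists were also counted under library totals and DESeq2, a step added after the data were seen.

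The 7 genes and the lists were chosen with earlier results of these data known. From a list, up to 4 called genes with the largest change and at least 10 CPM in their highest group could be named per comparison. Where fewer than 2 were called, the 2 genes of highest CPM could be named. In addition, H2-DMb2 and H2-Ob, the tested genes of their list, and Ifng were named after their values were seen. So were the differences between the experiments given for Irf8, Irf1 and Ifngr1.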

Additional observations from a re-analysis of the deposited data

Results flagged for a closer look

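The values here are differences between the experiments that passed an adjusted p of 0.05 in the joint edgeR fit, each a log2 fold change in experiment 2 minus the same log2 fold change in experiment 1. Stimulus and experiment cannot be told apart in them. In the response to the stimulus, Ciita differed by 4.33 and H2-DMa by 0.99, both higher under IFNγ + LPS, while H2-Ab1 (-1.09), H2-Eb1 (-1.0) and H2-DMb1 (-0.59) had the more positive change under LPS alone. Under IFNγ + LPS the effect of Dex was less negative for all 7 genes, by 4.02 for H2-Aa, 3.90 for H2-Eb1, 3.44 for Ciita, 2.87 for H2-Ab1, 2.75 for Cd74, 1.58 for H2-DMb1 and 0.72 for H2-DMa. The effect of dBRD9 was less negative for H2-Ab1 (1.3), H2-Eb1 (1.25), H2-Aa (0.85) and H2-DMb1 (0.56). With Dex present the dBRD9 effect differed by 1.0 for H2-Ab1, 0.99 for H2-Eb1, 0.76 for H2-Aa and 0.55 for H2-DMb1.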

How the results depend on the processing

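The 7 calls for Dex, the 7 for iBRD9 and the 5 for dBRD9 under LPS, and the 7 for the difference in the Dex effect, kept their number without any 1 library. Of 2275 member values under an alternative, 45 changed sign without being called in either setting, the largest at 0.33 in the main setting. Scaling by library totals alone moved the median of all genes from -0.05 to -0.56 for LPS against vehicle and from -0.11 to -0.76 for IFNγ + LPS against vehicle. It turned H2-Ab1 to -0.22 for dBRD9 + LPS against vehicle. For IFNγ + LPS against vehicle it turned H2-Aa to -0.23, H2-Ab1 to -0.24, H2-Eb1 to -0.57, Cd74 to -0.19 and H2-DMa to -0.16. For Dex + IFNγ + LPS against vehicle it turned H2-Aa to -0.52, H2-Ab1 to -0.50, Cd74 to -0.48 and H2-DMa to -0.52. For dBRD9 + IFNγ + LPS against vehicle it turned H2-Aa to -0.45, H2-Ab1 to -0.32 and Cd74 to -0.19. For the combination against vehicle it turned H2-Aa to -0.24, H2-Ab1 to -0.18, Cd74 to -0.35, H2-DMa to -0.16 and H2-DMb1 to -0.37. The same scaling changed the number of genes called from 5 to 3 for Dex + dBRD9 + LPS against Dex + LPS, from 5 higher to 1 higher and 2 lower (3) for IFNγ + LPS against vehicle, with H2-DMb1 at -0.72, from 1 higher to 1 higher and 6 lower (7) for Dex + IFNγ + LPS against vehicle, and from 3 higher to 1 higher and 4 lower (5) for dBRD9 + IFNγ + LPS against vehicle. For dBRD9 + LPS against vehicle 3 higher and 2 lower became 1 and 4, and for the combination of experiment 2 against vehicle 4 higher became 1 higher and 3 lower. The cause was not tested.

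Fits of the compared groups alone called 2 of the 5 genes for Dex + dBRD9 + LPS against Dex + LPS and 1 of the 2 for the interaction of Dex and dBRD9 under LPS. For Dex + IFNγ + LPS against IFNγ + LPS, where none was called, 4 were lower in that fit, 3 with DESeq2 and 2 with no filter. The cause was not tested. Leaving out 1 library at a time gave 2 to 5 called genes for Dex + dBRD9 + LPS against Dex + LPS, 1 to 3 for that interaction, 3 to 4 for dBRD9 + LPS against vehicle (5 in the main setting), 1 to 5 for IFNγ + LPS against vehicle, 0 for dBRD9 + IFNγ + LPS against IFNγ + LPS, 0 to 1 for Dex + dBRD9 + IFNγ + LPS against Dex + IFNγ + LPS, 1 to 2 for Dex + IFNγ + LPS against vehicle, 2 to 5 for dBRD9 + IFNγ + LPS against vehicle, 1 to 5 for the combination against vehicle and 2 to 5 for the difference in the dBRD9 effect with Dex. It gave 6 to 7 for the interaction of Dex and iBRD9, where H2-DMa was the call lost, and 5 to 7 for the difference in the response. With each library left out, 1090 member values kept their side of the threshold, 61 lost the call and 11 gained it.

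With the replicate number as a block, 146 of 147 member values kept their call, and H2-Eb1 for dBRD9 + LPS against vehicle did not (-0.20, adjusted p = 0.052). The median correlation of same-numbered libraries was 0.0074 and -0.019 in the 2 experiments, and every same-number correlation was over 0.1 in 2 of 21 group pairs of experiment 1 (Dex + LPS with each of its combinations with a BRD9 compound) and in 3 of 10 of experiment 2, where only 2 libraries a group carry a number. Over all genes, the block gave 126 calls against 186 for Dex + dBRD9 + IFNγ + LPS against Dex + IFNγ + LPS.

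Counts over all genes moved by more than 1.5 times as follows. For dBRD9 + LPS against LPS, 2103 became 3305 with the compared groups alone and 3465 without both libraries that stood apart. With the compared groups alone, 4390 became 2283 for Dex + iBRD9 + LPS and 1999 became 579 for Dex + dBRD9 + LPS, both against Dex + LPS. The interaction of Dex and dBRD9 under LPS went from 429 to 211 (compared groups), 947 (without both) and 266 to 890 (1 library left out). In experiment 2, dBRD9 went from 243 to 390 (no filter), 410 (compared groups) and 65 to 90 (1 library left out), dBRD9 with Dex from 186 to 285 (DESeq2), 515 (no filter), 511 (compared groups) and 33 to 180, and Dex from 2655 to 1530 to 1912 with 1 library left out. Their interaction went from 1 to 31 (DESeq2), 144 (no filter), 38 (compared groups) and 0 to 9. The difference in the dBRD9 effect went from 915 to 593 (2 separate fits) and 493 to 798, and that with Dex from 633 to 1099 (no filter), 330 (2 separate fits) and 277 to 901. With 2 libraries a group and a 10.6% coefficient of variation in experiment 2, depth and replicate number limit how small a class II change could be called there.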
